A study of Mus musculus with 21 samples.

Results

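Gene expression in tissue labelled neocortex was compared between 3 rNLS8 mice and 4 wild-type mice of batch A, which are 7 of the 21 mice of the series, and the mice were chosen only by the batch and genotype given in their labels. Interferon-stimulated genes stood at the top of the comparison, with all 46 genes of that list higher in the rNLS8 mice and a median log2 fold change of 2.22. Of other lists, 15 of 17 genes of MHC class I presentation, 13 of 24 markers of disease-associated microglia, 7 of 13 complement genes and 8 of 17 genes of stress and neuronal injury were also higher, whereas 10 of 19 cholesterol synthesis enzymes and 10 of 18 immediate early genes were lower, against 6.99% of all genes tested that were higher and 4.83% that were lower. In these lists, 5 interferon-stimulated genes and 4 microglia markers lacked enough counts in wild-type mice alone to pass the filter on low counts. Among the others, 41 of 41 interferon-stimulated genes and 10 of 20 microglia markers were higher. The lists were chosen with earlier results of these data known, so their counts are a description and not a test. rNLS8 mice are bigenic: they carry NEFH-tTA, in which the neurofilament heavy chain promoter drives the tetracycline transactivator mostly in neurons, and tetO-hTDP-43ΔNLS, which encodes human TDP-43 without its nuclear localization signal. The wild-type mice were littermates that the series describes as monogenic controls, so they may carry either transgene alone, and both lines had been backcrossed to C57BL/6J. Mice of both genotypes were 17 to 19 weeks old when they were given 350 µg of a non-targeting control antisense oligonucleotide by intracerebroventricular injection of 10 µL. Their diet held 200 mg/kg of doxycycline, which represses the transgene, until 2 weeks after the injection, and the neocortex was taken after 3 weeks of transgene expression. The oligonucleotide is shown because every mouse of both groups had received it, so its own effect cannot be seen in this comparison.
control oligonucleotide: cctataggactatccaggaa

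TDP-43 is a nuclear RNA-binding protein that is lost from the nucleus and aggregates in the cytoplasm of neurons in most patients with amyotrophic lateral sclerosis (ALS). Type I interferon signals through the JAK-STAT pathway to a transcription factor complex that binds interferon-stimulated response elements and switches on antiviral genes. Neurons synthesize cholesterol mainly in development and oligodendrocytes and astrocytes supply much of the sterol of the adult brain, under the control of the transcription factor Srebf2. Immediate early genes are transcribed within minutes of synaptic activity and are used as a readout of it.

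Each mouse had between 20786303 and 21250167 reads on genes. Levels are given as CPM, counts scaled to a fixed total per mouse, on which 3 counts are 0.141 to 0.144. In a principal component analysis, the first component held 42.6% of the variance and separated the genotypes. The mice nevertheless differed in ways that genotype does not give. Among the rNLS8 mice, T61340 had lower values for genes with long transcripts than the other rNLS8 mice (Spearman rho of -0.51 across genes between its deviation and transcript length), T61342 had the opposite trend (rho of 0.48), and T60303 had a rho of 0.11. The 4 wild-type mice stayed between -0.07 and 0.03. Each deviation was taken from the other mice of the same genotype, so the values of the rNLS8 mice are tied to each other. Against the wild-type mean, the median difference of T61340 went from 0.21 for the shortest transcripts to -0.26 for the longest. That of T61342 went from -0.09 to 0.09, a smaller change. The summed level of 7 striatal markers was 1006 CPM in the wild-type mouse T61333, between 213 and 536 CPM in the other wild-type mice and between 190 and 398 CPM in the rNLS8 mice. The summed level of 7 choroid plexus markers was 2180 CPM in the wild-type mouse T61334 and 29.6 CPM in the rNLS8 mouse T61342. None of the 7 striatal, 7 choroid plexus, 6 hippocampal and 5 red blood cell markers tested passed between the genotypes, and the summed ranges of the groups overlapped. The values nevertheless leaned to one side, with negative log2 fold changes in all 7 striatal, all 7 choroid plexus, all 5 red blood cell and 5 of the 6 hippocampal markers, and medians of -1.21, -1.65, -0.98 and -0.97. Without the filter on low counts, 6 striatal, 6 choroid plexus, 4 red blood cell and 2 hippocampal markers were past the threshold, each of them lower in the rNLS8 mice, against 3.41% of all genes lower in that fit. The part of tissue composition in the results that follow was not tested beyond a model with the striatal marker level and the fits without 1 mouse. The labels give neocortex, whereas the study's methods name brain cortex and a legend names hippocampus for rNLS8 mice, and this difference was not resolved; the summed level of the hippocampal markers was between 26.3 and 82.4 CPM over the 7 mice. Slc17a7, Camk2a, Gad1, Slc1a2 and Mbp, which mark excitatory neurons, inhibitory neurons, astrocytes and oligodendrocytes, were abundant in every mouse, the lowest value among them being 3456 normalized counts of Gad1 in T60303. In bulk tissue, fewer cells of a type and less RNA per cell cannot be told apart.

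Tardbp, the mouse gene of TDP-43 on chromosome 4 (148612382 to 148627084, GRCm38), had 2269, 2589, 2181 and 2182 normalized counts in the wild-type mice T61331, T61333, T61334 and T61345, and 3056, 2351 and 2846 in the rNLS8 mice T60303, T61340 and T61342. The groups overlapped, because T61340 was below the wild-type mouse T61333. The log2 fold change was 0.26, with a standard error (SE) of 0.12, and was not past the threshold (adjusted p = 0.191, edgeR's quasi-likelihood test with Benjamini-Hochberg adjustment). How far reads of the human transgene were counted on this gene was not tested, and a second row for the same symbol was present.

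Of 18580 genes tested, 2195 (11.8%) differed between the genotypes at an adjusted p under 0.05, 1298 (6.99%) of them upward and 897 (4.83%) downward in the rNLS8 mice. The changes upward were the larger ones, since 377 genes rose and 142 fell by more than 1 on the log2 scale. In 2661 genes (14.3%) every rNLS8 mouse was above every wild-type mouse, and in 2064 genes (11.1%) every rNLS8 mouse was below every wild-type mouse, regardless of the test. The median log2 fold change over all genes tested was 0.02. The rNLS8 mice did not contribute alike, as T61340 was the highest of the 3 for 49.2% of the genes that rose, T60303 for 37.7% and T61342 for 13.2%. The count of 2195 genes fell to 1171 without T60303, to 1174 without T61331, to 1302 without T61333 and to 1304 without T61345, and 878 genes passed in each of the 7 fits that left out 1 mouse. It was 1981 without T61340 and 2361 without T61342, the mice whose deviation from the other rNLS8 mice went most with transcript length.

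**Figure D1:**
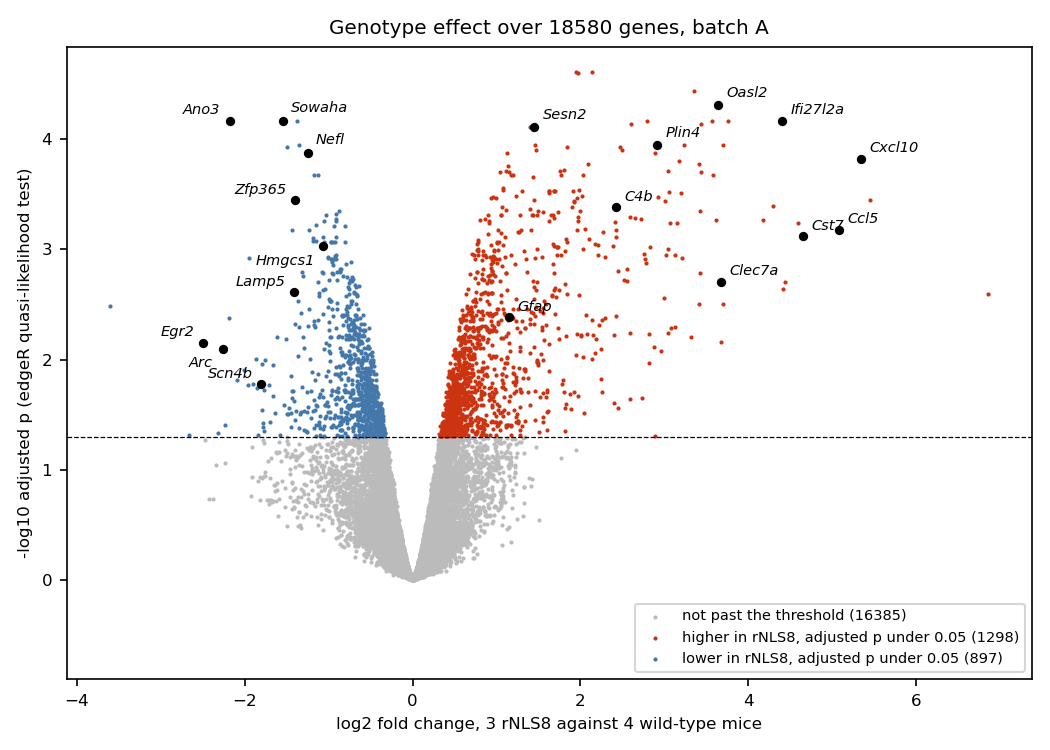
Log2 fold change (horizontal axis) against -log10 of the adjusted p (vertical axis) for 18580 genes, each point a gene, red where it rose and blue where it fell in rNLS8 mice; the dashed line marks an adjusted p of 0.05. The points to the right reach further from 0 than those to the left, with 1298 genes higher and 897 lower.

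All 46 interferon-stimulated genes were tested and all 46 rose, against 6.99% of all genes tested, with no overlap between the groups in any of them. Of these, 5 passed the filter on low counts only through the rNLS8 mice, and the other 41 had enough counts in the wild-type mice alone. Their log2 fold changes ranged from 0.69 to 5.35. The summed level of the list was between 255 and 274 CPM in the wild-type mice and was 1441 CPM in T60303, 1038 CPM in T61340 and 741 CPM in T61342. T60303 was the highest of the 3 rNLS8 mice in all 46 genes. The count of 46 was the same whichever mouse was left out, and the median then stayed between 1.85 and 2.44.

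Cxcl10, a chemokine that draws T cells through Cxcr3 and lies on chromosome 5 (92346638 to 92348889), had the highest log2 fold change of the genes named by rule. It had 0, 5.02, 2.01 and 11.2 normalized counts in T61331, T61333, T61334 and T61345, and 241, 198 and 135 in T60303, T61340 and T61342. The wild-type mice were thus near the limit of counting, while each rNLS8 mouse was above 100 counts. The fitted log2 fold change was 5.35, and between 4.95 (without T61331) and 6.26 (without T61345) when single mice were left out. Cxcl10 passed the filter on low counts only through the rNLS8 mice, as did Ifi27l2a, Cst7, Ccl5 and Eda2r among the genes named here. Such a gene had to be higher, and its values are a description with no test. Irf7, the transcription factor that amplifies the type I interferon response, had 66.6, 47.2, 44.3 and 46.9 normalized counts in the wild-type mice and 953, 729 and 395 in the rNLS8 mice in the same order (log2 fold change 3.76, adjusted p = 6.81e-05, SE 0.28). The lowest rNLS8 mouse, T61342, was still several times above the highest wild-type mouse. Isg15, a ubiquitin-like protein that is attached to other proteins, had 36.4, 36.1, 27.2 and 36.7 in the wild-type mice and 511, 379 and 218 in the rNLS8 mice. Usp18, the protease that removes it, had a mean of 21.3 ± 6.04 (SD, n = 4) in the wild-type group and of 255 ± 85.2 (SD, n = 3) in the rNLS8 group. The groups did not overlap for either gene, and their log2 fold changes were 3.43 (SE 0.27) and 3.57 (SE 0.27).

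Ifit1, which binds viral RNA, and Ifit3, which lies near it on chromosome 19, rose by 3.41 and 3.24 on the log2 scale. Ifit3 was the more abundant, with 221, 184, 184 and 243 normalized counts in the wild-type mice and 2805, 2053 and 1035 in the rNLS8 mice. Oasl2, of the oligoadenylate synthetase family, had the smallest adjusted p of the list (4.93e-05), with 68.7, 68.2, 74.4 and 61.2 counts against 1192, 861 and 506. The same order of the rNLS8 mice, with T60303 first and T61342 last, was seen for Ifi27l2a (310, 199 and 142 normalized counts), an interferon-induced membrane protein, for the antiviral dynamin-like GTPase Mx2 (148, 106 and 45), and for the guanylate-binding protein Gbp10 (299, 175 and 104). Their log2 fold changes were 4.40, 3.21 and 3.20.

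Promoter windows of 250 bases before to 50 bases after the start site, taken from RefSeq for GRCm38.p6, were searched on both strands for the letters GAAANNGAAA of the interferon-stimulated response element. RefSeq windows were matched for 35 of the 46 interferon-stimulated genes, and 22 of these (62.9%) held the letters at least once, against 3.99% of all 27025 symbols. The stretches of 4 of the genes described above are shown, since they give the sequence behind the count. Capitals mark the letters on either strand, and overlapping matches run together.
Ifit1, chr19:34640773-34640825, plus strand: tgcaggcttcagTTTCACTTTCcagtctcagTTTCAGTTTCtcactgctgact
Ifit3, chr19:34583361-34583428, plus strand: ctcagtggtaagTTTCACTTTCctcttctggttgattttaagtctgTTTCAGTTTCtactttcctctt
Isg15, chr4:156200863-156200908, minus strand: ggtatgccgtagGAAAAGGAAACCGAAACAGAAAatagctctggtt
Cxcl10, chr5:92349081-92349114, minus strand: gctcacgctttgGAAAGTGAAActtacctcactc
In Ifit1 the matches began 104 and 85 bases before the start site, in Ifit3 156 and 122 bases, in Isg15 between 78 and 66 bases, and in Cxcl10 213 bases before it. A match is a description of the sequence, and binding was not measured.

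Of 17 genes of MHC class I presentation, which shows peptides from inside the cell to CD8 T cells, 15 rose, against 6.99% of all genes tested, none fell and the median log2 fold change was 1.63. B2m, the light chain of the class I complex, had 1260, 1316, 1549 and 1337 normalized counts in the wild-type mice and 5344, 4363 and 2990 in the rNLS8 mice. The groups were far apart, and the difference was 1.63 on the log2 scale (adjusted p = 0.00031, SE 0.17). The heavy chains H2-D1 and H2-Q4 rose by 1.90 and 2.01 on the log2 scale, and since class I genes are near-identical copies with further rows in the table, how reads were shared among them is uncertain. Psmb10, an immunoproteasome subunit and the most abundant member that was not past the threshold, had a log2 fold change of -0.03 (adjusted p = 0.927). MHC class II presentation, by which professional antigen-presenting cells show peptides to CD4 T cells, gave 1 call in 7 genes, H2-DMa, against 6.99% of all genes tested that were higher. It gave 2 calls without T61342, a fit in which 1358 of all 18958 genes were higher. Counts this small do not set the list apart from all genes. H2-DMa helps to load class II peptides and had 262, 259, 266 and 275 normalized counts in the wild-type mice and 421, 518 and 434 in the rNLS8 mice, a log2 fold change of 0.79 (adjusted p = 0.00203). Cd74, the invariant chain of class II, had a log2 fold change of 0.66 that was not past the threshold (adjusted p = 0.0833).

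Of 13 complement genes, 7 rose, against 6.99% of all genes tested, and none fell, with a median log2 fold change of 0.76. The count was 4 without T60303, without T61331 or without T61345. C4b, which is cleaved early in the classical pathway, had 454, 642, 479 and 479 normalized counts in the wild-type mice and 4398, 1977 and 1901 in the rNLS8 mice. T60303 was more than the other 2 rNLS8 mice together, and the difference was 2.43 on the log2 scale (adjusted p = 0.000414, SE 0.27). C1qa and C1qb, subunits of C1q made by microglia, rose by 0.81 and 0.76 with adjusted p of 0.0051 and 0.00782. Rows of further copies exist for C4b, so its share of reads from the near-identical C4a is uncertain.

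Of 24 markers of disease-associated microglia, the state that microglia take around degenerating neurons, 13 rose, against 6.99% of all genes tested, and none fell. Of the 20 markers that had enough counts in the wild-type mice alone, 10 rose. The median log2 fold change was 0.89, and 7 members rose when T60303 was left out. Cst7, which encodes the protease inhibitor cystatin F, had 1.04, 2.01, 3.02 and 5.1 normalized counts in the wild-type mice and 135, 37.1 and 47 in the rNLS8 mice. Clec7a, the pattern receptor dectin-1, had 12.5, 10, 7.04 and 10.2 in the wild-type mice and 262, 54.2 and 68 in the rNLS8 mice. Both were highest in T60303 by far, and the groups did not overlap, with a log2 fold change of 3.68 for Clec7a (adjusted p = 0.00196, SE 0.55) and a fitted value of 4.65, given with no test, for Cst7. Without T60303 these values were 2.61 for Clec7a and 3.85 for Cst7. Ccl6, a chemokine of myeloid cells, rose by 1.72. Apoe, the main lipoprotein of the brain and the most abundant member that did not pass, had a log2 fold change of 0.09 (adjusted p = 0.697).

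Of 15 markers of resting microglia, 1 rose and 1 fell, shares close to those of all genes tested (6.99% and 4.83%), and the rise was lost in 5 of the 7 fits without 1 mouse (T60303 or any of the wild-type mice). P2ry12, their ADP receptor, had 743, 683, 682 and 755 normalized counts in the wild-type mice and 576, 487 and 496 in the rNLS8 mice. The groups did not overlap, and P2ry12 fell by 0.46 on the log2 scale (adjusted p = 0.0219). The call for P2ry12 was lost without T61331 or T61345. Of 9 markers of border and infiltrating macrophages, Lyve1 alone passed (log2 fold change 0.92, adjusted p = 0.0489), and it did not pass when any 1 mouse was left out.

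The defining markers of T cells were at the limit of detection: Cd3d, Cd3e and Cd8a had 3, 4 and 5 counts in all 7 mice together. Ccl5, a chemokine of T cells, NK cells and activated glia, had 3.12, 4.01, 0 and 0 normalized counts in the wild-type mice and 88.7, 70.2 and 34 in the rNLS8 mice. The groups did not overlap, and the wild-type mice were at or near the limit of 3 counts, so no fold change is given. Cd4, by contrast, had 90.5, 322, 159 and 25.5 in the wild-type mice and 21.5, 45.2 and 23 in the rNLS8 mice, with groups that overlapped. Its log2 fold change of -2.32 (adjusted p = 0.0463) was -0.67 (adjusted p = 0.205) when the level of the striatal markers was added to the model, an alternative chosen after seeing the data. The order of Cd4 over the wild-type mice, with T61333 highest and T61345 lowest, was that of the summed striatal markers, and their part in the result was not tested further. Since the striatal markers leaned lower in the rNLS8 mice, the model cannot separate their level from genotype.

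Of 17 markers of reactive astrocytes, 5 rose (Serpina3n, Gfap, Vim, C3 and Osmr), against 6.99% of all genes, and none fell, with a median log2 fold change of 0.24. The count was 2 without T60303, T61331 or T61345 and 3 without T61333. Gfap, the intermediate filament of astrocytes, had 3575, 3687, 4230 and 3569 normalized counts in the wild-type mice and 11962, 6780 and 6387 in the rNLS8 mice. The groups were apart, T60303 was the highest, and the difference was 1.15 on the log2 scale (adjusted p = 0.00414, SE 0.20). Serpina3n, a secreted serine protease inhibitor, rose by 1.42 (adjusted p = 0.00374, SE 0.23). Of 13 markers of homeostatic astrocytes none passed, and the median was -0.14; the glutamate transporter Slc1a2 had a log2 fold change of -0.33 (adjusted p = 0.181).

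Of 18 markers of mature oligodendrocytes and myelin, Apod rose and Ugt8a and Car2 fell, against 6.99% of all genes higher and 4.83% lower, the median was -0.07, and Mbp, the myelin basic protein, had a log2 fold change of -0.04 (adjusted p = 0.908). Ugt8a, the enzyme that makes the galactolipids of myelin, had 879, 1033, 1126 and 950 normalized counts in the wild-type mice and 626, 384 and 703 in the rNLS8 mice. The groups did not overlap and T61340 was the lowest, so that Ugt8a fell by 0.80 on the log2 scale (adjusted p = 0.0187, SE 0.18), but the call was lost without T61333 (adjusted p = 0.0518). Car2, a carbonic anhydrase, fell by 0.38 and kept its call in only 1 of the 7 fits without 1 mouse. Apod, an apolipoprotein, passed in 2 of those fits. None of 11 markers of oligodendrocyte precursors passed, and their median was -0.01. Of 13 markers of disease-associated oligodendrocytes shown by the study, 5 rose (B2m, C4b, H2-D1, H2-K1 and Serpina3n) and 1 fell, against 6.99% of all genes higher and 4.83% lower. The median log2 fold change of this list was 0.32 and the lowest was -0.91. In each fit without 1 mouse, 1 member fell. The 5 genes that rose are also members of the class I, complement and reactive astrocyte lists, and in bulk tissue their cell of origin was not measured.

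**Figure D2:**
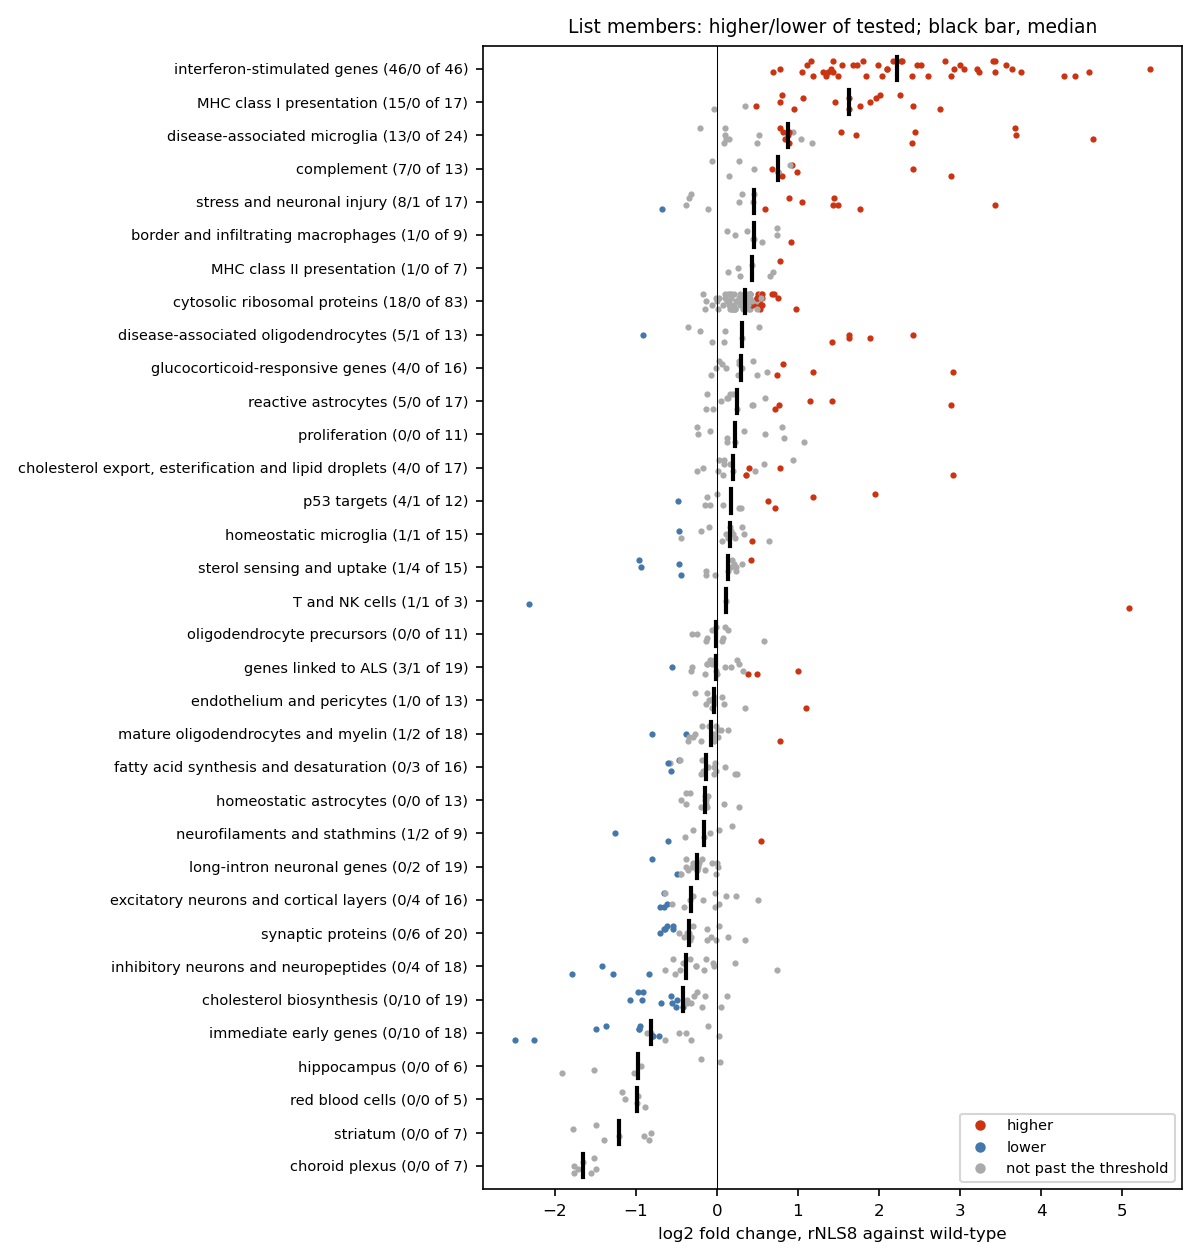
Log2 fold change (horizontal axis) of each tested member of 34 gene lists, ordered by their median (black bar), with the number of members higher and lower of those tested beside the name; red, higher; blue, lower; grey, not past the threshold. Interferon-stimulated genes (46 of 46 higher) stand at the top, and 10 of 19 cholesterol biosynthesis genes and 10 of 18 immediate early genes are lower.

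The mRNA of 10 of 19 enzymes of cholesterol biosynthesis fell and of none rose, against 4.83% of all genes lower, while the other 9 did not pass, with a median log2 fold change of -0.42. The count was 5 without T60303 or without T61331. Hmgcs1, which makes HMG-CoA, had 5720, 6625, 6135 and 5714 normalized counts in the wild-type mice and 2770, 2400 and 3493 in the rNLS8 mice. Every rNLS8 mouse was well below every wild-type mouse, and Hmgcs1 fell by 1.07 on the log2 scale (adjusted p = 0.000941, SE 0.14). Fdft1 and Sqle, which form squalene and its epoxide, fell by 0.91 and 0.92 with SEs of 0.10 and 0.12, and the groups did not overlap for either gene.

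The genes that sense and take up sterols split. Stard4, a cholesterol transfer protein, had 751, 866, 713 and 749 normalized counts in the wild-type mice and 443, 292 and 450 in the rNLS8 mice, and fell by 0.96 (adjusted p = 0.00345, SE 0.16). Srebf2, the transcription factor of the pathway, fell by 0.46 and passed in 3 of the 7 fits without 1 mouse, while Insig1 also fell and Lrp8 rose. In all, 4 of 15 members of that list fell and 1 rose, against 4.83% and 6.99% of all genes, and the median was 0.14. Without T61331, T61333 or T61334, 2 fell, and without T60303, T61333, T61334 or T61345 none rose. Of 17 genes of cholesterol export, esterification and lipid droplets, Plin4, Apod, Abca3 and Abcg4 rose, against 6.99% of all genes, and none fell. Plin4, a perilipin that coats lipid droplets, stood out among them with 23.9, 62.2, 52.3 and 36.7 normalized counts in the wild-type mice and 298, 356 and 341 in the rNLS8 mice. The rNLS8 mice lay close together, and the difference was 2.91 on the log2 scale (adjusted p = 0.000114, SE 0.25), in contrast to 0.40 for the lipid transporter Abca3. Apart from Plin4, the calls of this list were each lost in some of the fits without 1 mouse, with 1 gene left without T61331, T61333 or T61345. Of 16 genes of fatty acid synthesis and desaturation, Fasn, Acss2 and Scd1 fell by 0.56, 0.47 and 0.60, against 4.83% of all genes lower, and none rose.

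The letters CACCCCAC of the sterol regulatory element, searched on both strands, were found in the window of 1 of 14 matched cholesterol biosynthesis genes, Hmgcs1, against 3.3% of all symbols. It is shown because Hmgcs1 fell most among the enzymes.
Hmgcs1, chr13:119690203-119690234, plus strand: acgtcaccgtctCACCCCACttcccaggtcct
The match began 136 bases before the start site, with capitals marking it.

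**Figure D3:**
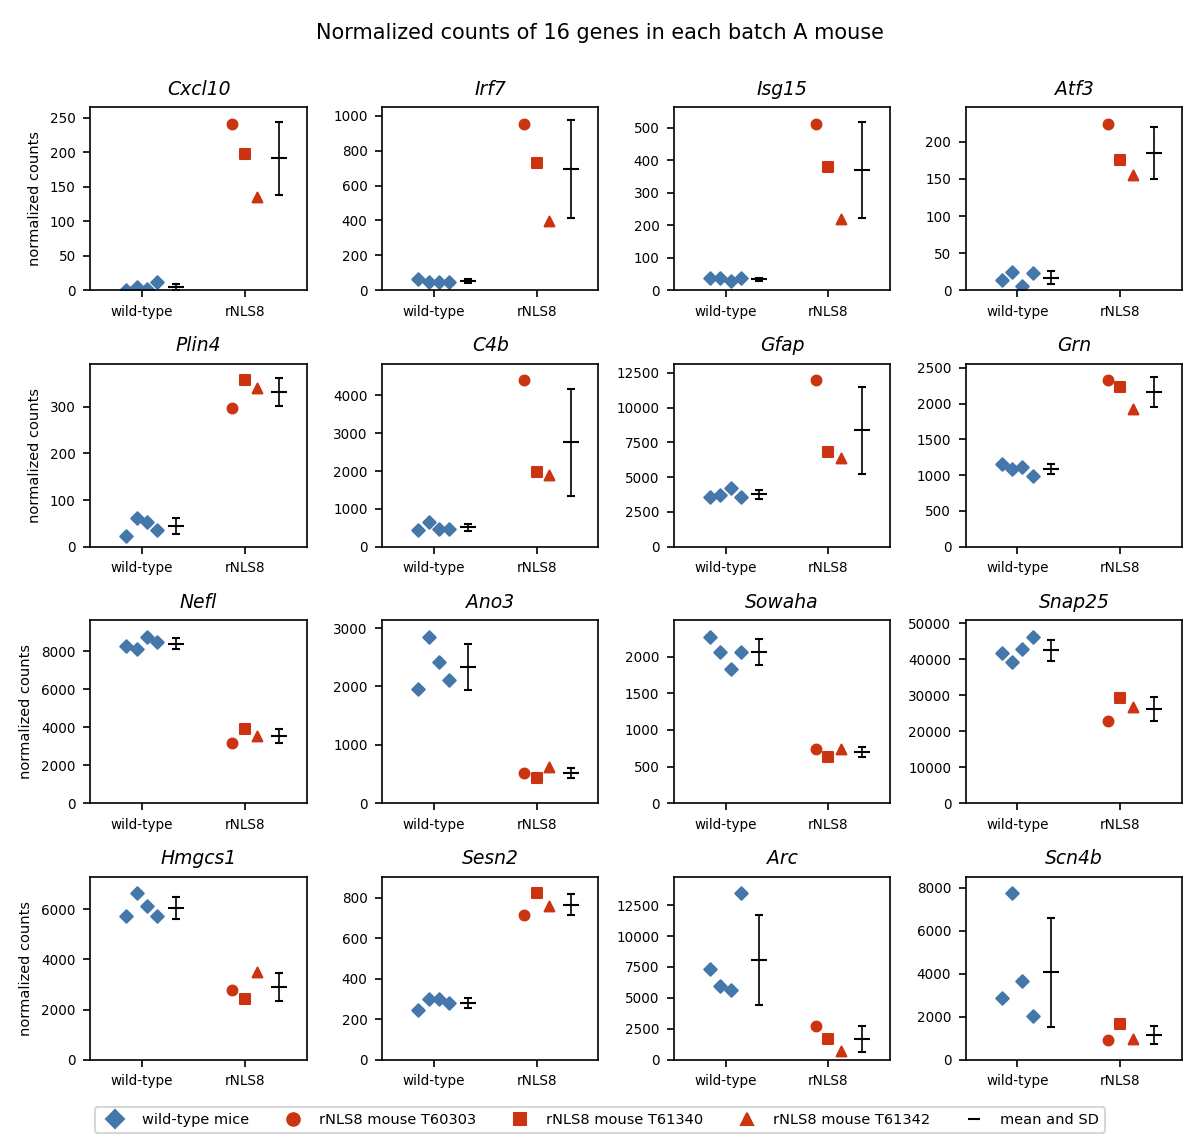
Normalized counts (vertical axes, from 0) of 16 genes in each mouse, with wild-type mice as blue diamonds, the rNLS8 mice as red symbols, and the mean with its SD in black (n = 4 wild-type, n = 3 rNLS8). T60303 is the highest rNLS8 mouse for Cxcl10, Irf7, Isg15, C4b and Gfap, whereas the 3 rNLS8 mice lie close together for Plin4, Nefl and Sesn2.

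Of 20 genes of stress and neuronal injury, 17 passed the filter on low counts, and 8 of these rose, namely Atf3, Chac1, Trib3, Sesn2, Ddit3, Atf4, Atf5 and Asns, and Jun fell, against 6.99% of all genes higher and 4.83% lower. The summed level of the list was between 418 and 424 CPM in the wild-type mice and between 615 and 701 CPM in the rNLS8 mice. Atf3, a transcription factor of injured neurons on chromosome 1 (191170296 to 191183333), had 13.5, 25.1, 6.04 and 23.5 normalized counts in the wild-type mice and 224, 176 and 156 in the rNLS8 mice. The groups were far apart and the difference was 3.43 on the log2 scale (adjusted p = 2e-04, SE 0.33). Sesn2, an amino acid sensor that restrains mTORC1, had 243, 298, 299 and 280 against 717, 822 and 758, and Chac1, which degrades glutathione, had 156, 210, 230 and 136 against 613, 680 and 585. For these genes the rNLS8 mice varied little, and unlike in the interferon list T61340 was the highest of them. Their log2 fold changes were 1.45 (SE 0.12) and 1.77 (SE 0.17). Jun, a partner of Atf3 in transcription, had 1210, 977, 1243 and 1211 in the wild-type mice and 745, 702 and 736 in the rNLS8 mice and thus fell by 0.67 (adjusted p = 0.00398).

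The letters TGATGCAA of the C/EBP-ATF response element were in the window of 4 of the 19 members of this list with a RefSeq window, tested or not, against 1.03% of all symbols. Atf3 and Chac1, which rose, are shown, and the other 2, Slc7a11 and Nupr1, were not past the threshold.
Atf3, chr1:191183424-191183455, minus strand: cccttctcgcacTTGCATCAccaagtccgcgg
Chac1, chr2:119351037-119351068, plus strand: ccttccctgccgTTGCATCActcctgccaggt
Capitals mark the letters, which here lie on the opposite strand, 110 and 193 bases before the start site.

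Of 12 targets of p53, 4 rose (Cdkn1a, Aen, Eda2r and Phlda3) and Ccng1 fell, against 6.99% of all genes higher and 4.83% lower. Cdkn1a, the cell cycle inhibitor p21, had 494, 447, 428 and 484 normalized counts in the wild-type mice and 967, 1220 and 992 in the rNLS8 mice, a log2 fold change of 1.19 (adjusted p = 0.000213, SE 0.12). The groups did not overlap. Aen, a nuclease, rose by 0.71. Eda2r, a receptor of the tumour necrosis factor family, had 7.10 ± 2.11 (SD, n = 4) normalized counts in the wild-type mice and 42, 21.1 and 20 in the rNLS8 mice, and without this gene 3 of 11 targets rose. Ccng1, which encodes cyclin G1, fell by 0.48 (adjusted p = 0.0106). Of 16 glucocorticoid-responsive genes, 4 rose (Plin4, Cdkn1a, Sult1a1 and Zbtb16), against the same 6.99%, and 2 did so without T61331. None of 11 proliferation genes passed. Of 13 markers of endothelium and pericytes, only Icam1 rose, a share close to the 6.99% of all genes tested. Icam1, an adhesion molecule for leukocytes that is induced by cytokines, rose by 1.10 (adjusted p = 0.0183), and its call was lost in 4 of the 7 fits without 1 mouse.

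Of 18 immediate early genes, 10 fell, against 4.83% of all genes tested, and none rose, with a median log2 fold change of -0.81; without T61340, 6 fell. Arc, a synaptic protein made from rapidly induced mRNA on chromosome 15 (74669081 to 74672570), had 7306, 5967, 5640 and 13449 normalized counts in the wild-type mice and 2751, 1643 and 678 in the rNLS8 mice. The wild-type mouse T61345 was far above the others, T61342 was the lowest, and the groups did not overlap. Arc fell by 2.26 on the log2 scale (adjusted p = 0.00798, SE 0.43), and by 1.90 without T61345. The transcription factor Egr2 was highest in the same wild-type mouse, with 203, 161, 170 and 550 counts against 71, 40.1 and 32, and its further row, Egr2-2, held nearly the same counts (202, 159, 170 and 542 against 70.1, 40.1 and 31). Whether the rows share reads was not tested. Egr2 fell by 2.50 (SE 0.47), and by 1.89 without T61345. The letters TGACGTCA of the cAMP response element were in the promoter window of 1 of 13 matched immediate early genes, Btg2, which did not pass, against 2.03% of all symbols. Egr1, Nr4a2 and the secreted pentraxin Nptx2 fell by 1.37, 0.78 and 0.94. For Nptx2 the wild-type mice lay close together, between 1017 and 1200 normalized counts, and the rNLS8 mice between 455 and 665.

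Neuronal genes fell in part. Of 20 synaptic proteins 6 fell, against 4.83% of all genes tested, and none rose, with a median of -0.34, and 2 fell without T60303, 3 without T61331 and 3 without T61345. Snap25, a SNARE protein of vesicle fusion, had 41731, 39341, 42959 and 46254 normalized counts in the wild-type mice and 22826, 29326 and 26659 in the rNLS8 mice. The groups were apart and Snap25 fell by 0.70 (adjusted p = 0.00655, SE 0.13). The AMPA receptor subunit Gria3 fell by 0.61 and the vesicle protein Vamp1 by 0.54, whereas the vesicle protein Syp had a log2 fold change of 0.13 (adjusted p = 0.63). Among 16 markers of excitatory neurons and cortical layers, Camk2a, Bcl11b, Rasgrf2 and Etv1 fell, against 4.83% of all genes, and Slc17a7, the vesicular glutamate transporter, had a log2 fold change of 0.23 (adjusted p = 0.306) with groups that overlapped. None of these 4 passed without T60303, 1 passed without T61331, T61333 or T61345, and 2 without T61334 or T61340. Camk2a, the calcium kinase of excitatory synapses, fell by 0.62 from 93913 ± 14570 (SD, n = 4) normalized counts to 61317 ± 2585 (SD, n = 3).

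Of 18 genes of inhibitory neurons and neuropeptides, Lamp5, Calb1, Penk and Tac1 fell, against 4.83% of all genes, and none rose, and 2 fell without T60303, T61333 or T61334. Lamp5, a membrane protein that marks a class of cortical interneurons, had 2453, 2797, 3362 and 3520 normalized counts in the wild-type mice and 764, 1552 and 1105 in the rNLS8 mice. T60303 was the lowest, the groups did not overlap, and Lamp5 fell by 1.41 (adjusted p = 0.00246, SE 0.22). Calb1, the calcium buffer calbindin, fell by 0.84 (adjusted p = 0.00403). Penk, the enkephalin precursor that is abundant in striatum, had 1814, 4675, 4495 and 920 against 525, 1247 and 822, with groups that overlapped. Its log2 fold change of -1.78 (adjusted p = 0.0411) was -0.66 (adjusted p = 0.209) with the striatal marker level in the model. Penk is itself abundant in striatum and the striatal markers leaned lower in the rNLS8 mice, so this model cannot separate their level from genotype.

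Several of the largest decreases lay outside these lists. Ano3, an anoctamin membrane protein on chromosome 2 (110655201 to 110950391), had 1958, 2847, 2421 and 2117 normalized counts in the wild-type mice and 509, 430 and 615 in the rNLS8 mice. Sowaha, an ankyrin repeat protein on chromosome 11 (53476578 to 53480195), had 2270, 2069, 1833 and 2062 against 742, 625 and 744. Both were tight within their groups and far apart between them, and fell by 2.17 (SE 0.17) and 1.55 (SE 0.12), each with an adjusted p of 6.81e-05. Zfp365, an abundant zinc finger protein of neurons, fell from between 13153 and 17905 to between 5068 and 6882 normalized counts, by 1.40 on the log2 scale (adjusted p = 0.000357). Ddit4l, an inhibitor of mTOR signalling, fell by 1.50 (SE 0.13), and Acvr1c, the activin receptor ALK7, by 1.44 (SE 0.18). These 5 genes passed in each of the 7 fits without 1 mouse and with the striatal marker level in the model.

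The other large decreases varied with mouse. Scn4b, the sodium channel beta-4 subunit, had 2880, 7734, 3660 and 2021 normalized counts in the wild-type mice and 900, 1645 and 959 in the rNLS8 mice, and Rxrg, a retinoid X receptor, had 308, 777, 292 and 156 against 137, 142 and 74. Both were highest in T61333, the wild-type mouse with the most striatal marker RNA. With the striatal marker level in the model, the log2 fold change of Scn4b went from -1.80 to -0.93 (adjusted p = 0.00554) and that of Rxrg from -1.70 to -0.71 (adjusted p = 0.196). Gpr101, an orphan receptor, and Rsph4a, a radial spoke protein of motile cilia, were highest in T61334, the mouse with the most choroid plexus marker RNA, at 228 and 156 normalized counts, and fell by 1.90 and 1.42. Without T61334, Gpr101 fell by 1.40 and Rsph4a by 1.07, and both kept their calls. Scn4b and Rxrg fell by 1.31 and 1.11 without T61333, and also kept their calls. Of the 7 fits without 1 mouse, Rxrg passed in 3, Rsph4a in 5, and Gpr101 and Scn4b in 6 each. The call was lost without T61340 for Gpr101, without T60303 for Scn4b, and without T60303 or T61340 for Rsph4a. For Rxrg it was lost without T61331, T60303, T61340 or T61342.

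**Figure D4:**
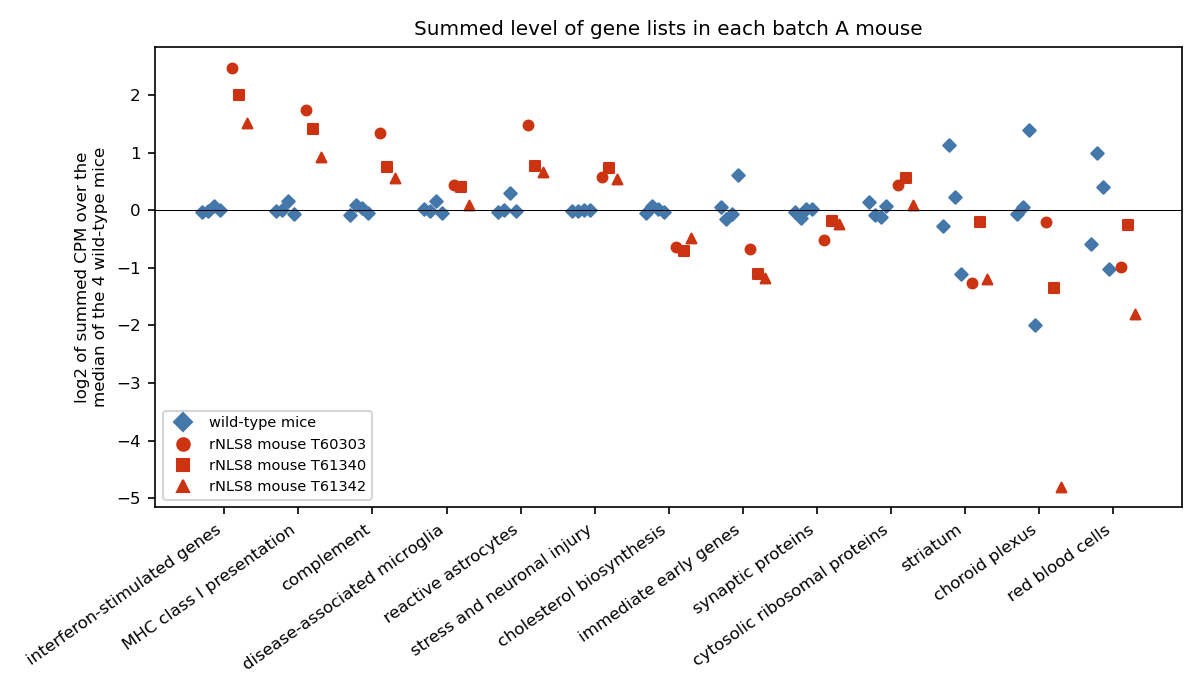
Summed CPM of 13 gene lists in each mouse, as the log2 of the ratio to the median of the wild-type mice (vertical axis); blue diamonds are wild-type mice and red symbols the rNLS8 mice. The rNLS8 mice are apart from the wild-type mice for interferon-stimulated genes (741 to 1441 CPM against 255 to 274), whereas the markers of striatum, choroid plexus and red blood cells overlap between the genotypes.

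Of 9 genes of neurofilaments and stathmins 3 passed, and of 19 genes linked to ALS 4 passed, against 11.8% of all genes tested. Nefl, the neurofilament light chain on chromosome 14 (68083863 to 68089095), had 8269, 8104, 8755 and 8475 normalized counts in the wild-type mice and 3178, 3903 and 3514 in the rNLS8 mice. Within each group the mice were close to each other, and Nefl fell by 1.25 on the log2 scale (adjusted p = 0.000133, SE 0.11), between 1.18 and 1.33 when single mice were left out. The other calls of the first list were 2: Stmn1, which destabilizes microtubules, fell by 0.60, and Ina, the internexin that assembles with neurofilaments, rose by 0.54. Stmn1 passed in 4 and Ina in 3 of the 7 fits without 1 mouse. With T61340 left out, 4 members fell, and with T60303, T61331 or T61345 left out, 1 fell. Grn, which encodes the lysosomal protein progranulin, had 1153, 1085, 1112 and 987 normalized counts in the wild-type mice and 2322, 2237 and 1929 in the rNLS8 mice, a log2 fold change of 0.997 (adjusted p = 0.000339, SE 0.11). Of the genes linked to ALS, Grn, Optn and Atxn2 rose and Ubqln2 fell, and the median was -0.01. Grn passed in each of the 7 fits without 1 mouse, Ubqln2 in 3, and Atxn2 and Optn in 2 each.

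Of 19 neuronal genes with long introns, several of which are known to need nuclear TDP-43, Kcnd2 and Dlg2 fell, against 4.83% of all genes, and none rose. Dlg2, a scaffold of the postsynaptic density, passed in 2 of the 7 fits without 1 mouse. Kcnd2, a potassium channel, had 1414, 1769, 1744 and 1590 normalized counts in the wild-type mice and 839, 727 and 1237 in the rNLS8 mice, and fell by 0.80 (adjusted p = 0.0133, SE 0.17). The groups did not overlap, although T61342 was far above the other rNLS8 mice, and T61342 was the highest of them in 16 of the 19 genes. Without T61342, 7 of the genes fell, in a fit where 1003 of all 18958 genes were lower. Without T60303 none did, where 378 of all 18860 genes were lower. T61342 also had higher values for genes with long transcripts than the other rNLS8 mice.

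Ribosomal protein genes had the opposite order of mice. Of 83 tested, 18 rose, against 6.99% of all genes tested, none fell, the median log2 fold change was 0.35, and T61340 was the highest rNLS8 mouse in 67. Rps2 had 7610, 6266, 6114 and 6541 normalized counts in the wild-type mice and 13596, 14349 and 11118 in the rNLS8 mice, and rose by 0.97 (adjusted p = 0.00101, SE 0.13). Rpl12 and Rps19 rose by 0.75 and 0.68. The groups of Rps2 were far apart, but the summed level of the list was 11110 CPM in T61342 and 11440 CPM in the wild-type mouse T61331. The count was 3 without T60303, 8 without T61340, between 6 and 9 without 1 wild-type mouse, and 47 without T61342. Of all genes, 793 were higher without T60303, 1117 without T61340, between 734 and 912 without 1 wild-type mouse, and 1358 without T61342. With scaling by library size only, 37 rose, and with the trend on transcript length removed, 30 rose, as with DESeq2, whereas with the striatal marker level in the model 4 rose. Of all 18580 genes, 1773 were higher with library size only, 1615 with the length trend removed, 1468 with DESeq2 and 634 with the striatal marker level. Ribosomal protein genes have short transcripts, and the part of transcript length in these values was not tested further.

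**Figure D5:**
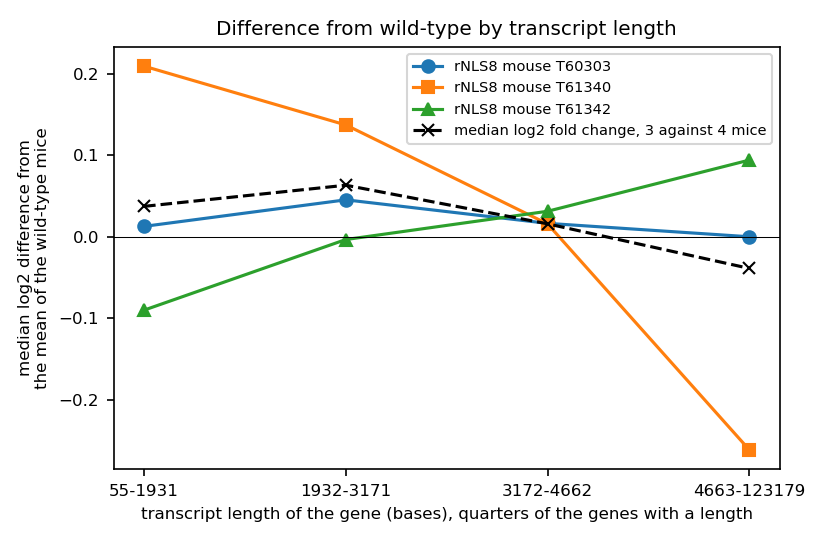
Median log2 difference from the mean of the 4 wild-type mice (vertical axis) in 4 equal bins of the 16387 genes with a known transcript length (horizontal axis, bases), for each rNLS8 mouse and, dashed, for the log2 fold change of the whole comparison. T61340 goes from 0.21 in the bin of shortest transcripts to -0.26 in that of the longest, and T61342 from -0.09 to 0.09.

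In the bin of genes with the shortest transcripts 7.44% rose and 3.44% fell, and in the bin with the longest 4.39% rose and 6.15% fell. With the length trend of each mouse removed, 2947 genes passed, and 2164 of the 2195 genes called before were among them. With the striatal marker level in the model, 1056 genes passed, of which 1002 were among the 2195, and each of the 2195 genes kept the sign of its difference under both. With the striatal marker level, the genes that rose were 44 of 46 interferon-stimulated genes, 14 of 17 genes of MHC class I presentation, 8 of 17 of stress and neuronal injury, 7 of 24 of disease-associated microglia, 5 of 13 of complement and 2 of 17 of reactive astrocytes. In the same fit 12 of 18 immediate early genes, 6 of 19 cholesterol biosynthesis enzymes and 3 of 20 synaptic proteins fell. Of all genes, 3.41% were higher and 2.27% lower in that fit. Xist, the RNA that coats the inactive X chromosome, ranged from 72.4 to 755 CPM over the 7 mice, with 117, 268 and 755 CPM in the rNLS8 mice, and 4 genes of the Y chromosome had no count in any mouse. The sex of the mice is not given in the labels. With the level of Xist in the model, 2861 genes passed.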

How the data were processed

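Bulk RNAseq of tissue labelled neocortex from 7 mice was analysed as deposited. Per the labels and methods, RNA with a RIN above the stated minimum was sequenced by BGI and aligned to GRCm38 (mm10 in the submitters' processing notes, which also name HISAT2, Bowtie2 and RSEM without their roles), and the authors deposited whole-number counts for each gene symbol. Whether these are rounded estimates of RSEM is not given in the sources used here. Strand and multi-mapping settings are not given in the sources used here. Of 48474 rows in the table, 16378 were empty in these mice, and 2553 rows of further copies of a symbol held 4.16% of counts.

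Counts were analysed in R 4.3.3 with edgeR 4.0.16: filter by expression (minimum count 10, minimum total 15), TMM normalization, and the quasi-likelihood test of genotype over the 7 mice with Benjamini-Hochberg adjustment, two-sided, at 0.05. The study's methods name DESeq2, which was run as an alternative (1.42.0), as was limma-voom (3.58.1). Normalized counts were scaled by each mouse's effective library size to the mean of these sizes, and log2 CPM used a prior count of 2. Standard errors came from the fold change and F statistic. List levels are sums of CPM. Transcript length is that of the longest GENCODE vM21 transcript and was found for 88.2% of genes tested. Total counts were between 20786303 and 21250167. Without molecular identifiers, a limit of 3 counts covers counting error only. The procedure was tested on simulated counts that held no tissue or transcript length differences between mice, so that run does not cover such differences.

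Named genes were Tardbp, the 12 genes with the largest and the 12 with the smallest log2 fold change that passed the test, with a mean of at least 50 counts, groups that did not overlap and a named symbol, and from each list the 3 called genes with the smallest adjusted p and the most abundant that was not called. Further members are named where 5 or fewer, or a whole stress list, are counted. Members and lists were chosen with earlier results of these data known. Alternatives were other tools, scalings and filters, rows of copies left out, Xist as covariate, a length trend removed and each mouse left out. The mice of batch B were not used. Some genes that the naming rule selects are not reported here.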

Additional observations from a re-analysis of the deposited data

Results flagged for a closer look

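In the 4 wild-type mice, 120 genes and lists were searched for a mouse whose gap to the nearest other mouse was above Dixon's critical value as a share of the range, and 11 were found; chance alone gives about 1 in 20 (6 of 120). T61334 stood above the other wild-type mice for Gpr101 (228 normalized counts, the next mouse at 99.3, a gap of 0.835 of the range), for Vim (943 and 622, 0.906), for Fdft1 (2063 and 1819, 0.929), for the summed reactive astrocyte markers (361 and 295 CPM, 0.886) and for those of oligodendrocyte precursors (599 and 523 CPM, 0.841). It stood below them for Isg15 (27.2 and 36.1, 0.937). T61333 stood above the others for C4b (642 and 479, 0.863) and below them for Jun (977 and 1210, 0.874) and Optn (243 and 312, 0.833). T61345 stood above the others for Egr2 (550 and 203, 0.891), and T61331 for Irf7 (66.6 and 47.2, 0.87). The groups of 3 rNLS8 mice are too small for this search.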

How the results depend on the processing

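Of 86 named genes, none changed sign under the alternatives. The number of genes past the threshold was between 1171 and 2361 when single mice were left out, with 734 to 1358 higher and 378 to 1003 lower. These fits have fewer samples. With the level of striatal markers in the model, an alternative added after seeing the data, 1056 genes passed, 634 higher and 422 lower, and DESeq2 gave 1358 lower genes against 897; the cause was not tested. Scaling by library size only moved the share of higher genes among the calls to 70.7%, from 1298 of 2195, and the median log2 fold change of all genes from 0.02 to 0.07. The other counts of genes stayed within 1.5 times, and so did the number of list members past the threshold, 184 in all. Of the named genes, between 8 and 19 lost their call when a mouse was left out, 22 with the striatal marker level in the model, 4 with limma-voom and 4 without a filter, while Tardbp passed once the length trend was removed (log2 fold change 0.33, adjusted p = 0.043). Groups of 3 and 4 mice limit the precision, and p-values measure only the spread between these mice. No paired analysis was possible because the labels give no replicate numbers shared between the genotypes.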

Other observations

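Some genes of low level were near 0 in the wild-type mice, and the following were named after their values were seen; they passed the filter through the rNLS8 mice, so no test is given. Adm2, which encodes the peptide intermedin, had no count in any of the wild-type mice and 11.2, 20.1 and 12 normalized counts in T60303, T61340 and T61342, with T61340 the highest as for Sesn2 and Chac1. Ifi206, an interferon-inducible gene of the Ifi200 family, had 0, 0, 1.01 and 1.02 in T61331, T61333, T61334 and T61345 against 35.5, 28.1 and 19, in the order of mice seen over the interferon-stimulated genes.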
